A study of Arabidopsis thaliana with 9 samples.

Results

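The 6 microRNA precursors described here belong to the families MIR397, MIR398 and MIR408, whose mature microRNAs are known to respond to copper supply in Arabidopsis thaliana. They were picked by the name each probe carries in the array design, and all 6 were present, among 5077 genes on the array. They had 8 probes: ath-MIR397a, ath-MIR397b, ath-MIR398a, ath-MIR398b and ath-MIR398c had 1 each, and ath-MIR408 had 3. The choice of these families was made with their organ signals already known. Their organ differences are therefore given as a description, and no p-value is given for them.

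RNA of wild-type plants was hybridised to 1-colour arrays made to read lincRNAs, long non-coding RNAs from between genes, with 3 biological replicates for each of 3 organs and 1 array per replicate. The plants are Col-0 by the growth protocol, whereas the ecotype labels run on from Col-0 to Col-8 over the samples, which was taken as a running number. Whether replicates came from separate plants or cultures is not stated, so errors measure the spread between these samples. Leaf and root were taken from plants of 30 days in hydroponic culture on MGRL medium. Inflorescence, bearing open flowers, buds and a few young siliques, was taken from plants of 4 weeks on solid Murashige-Skoog medium or in a greenhouse. All plants had 22 °C and 16 h of light to 8 h of dark. Age, medium and organ cannot be told apart in any comparison with inflorescence, and the copper content of the media is not stated in the labels. In whole organs, fewer cells of a type and less RNA per cell cannot be told apart either. None of the 17 organ marker genes looked for (of leaf, root and flower) was on the array, so the organ labels could not be checked that way.

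A plant microRNA is cut from the hairpin of a longer precursor transcript, and these probes read the precursor, not the mature microRNA. When copper is scarce, the transcription factor SPL7 switches on genes of these families, though not necessarily each of them. Their microRNAs then lower the transcripts of copper proteins that the plant can spare: miR398 those of the copper/zinc superoxide dismutases CSD1 and CSD2 and their copper chaperone CCS, miR397 those of laccases, and miR408 those of laccases and of plantacyanin. MIR398b and MIR398c give the same mature microRNA.

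The RefSeq table of assembly TAIR10.1 matched all 6 by name. MIR398a (AT2G03445) lies at chr2:1040938-1041042, between NRP1 and PAP9. MIR398b (AT5G14545, chr5:4691022-4691137) and MIR398c (AT5G14565, chr5:4694694-4694808) are near neighbours on chromosome 5, with 3556 bases between them. MIR408 (AT2G47015) lies at chr2:19319814-19320031 and MIR397a (AT4G05105) at chr4:2625950-2626056. MIR397b (AT4G13555, chr4:7878652-7878760) starts 90 bases after the end of MIR857 (AT4G13554), another copper-responsive precursor whose microRNA targets a laccase. For 3 of the 6, the annotated interval overlaps a protein-coding gene: AT5G14550 for MIR398b, AT2G47020 for MIR408 and ENT6, a nucleoside transporter, for MIR397a. None of these 3 genes was on the array, and strand is not given in the table, so signal from such a transcript cannot be told apart from precursor signal.

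Signals are the processed signal of the scanner software, a background-subtracted intensity. A probe counts as detected on an array where the software flags it as well above background. Between 10.7% and 39.9% of all gene probes were detected per array. Leaf replicate 2 stood apart: it had the lowest share, and its weakest detected signal was 29.8, against 3.91 to 6.76 on the other arrays. Undetected probes also read higher there, with a median of 7.27 against 1.11 to 1.82 elsewhere. Replicates 1 and 2 of each organ shared slide 1, and replicate 3 of each was on slide 2. Log2 values below are scaled by each array's 75th percentile over 1345 probes detected on all 9 arrays. An error after ± is the standard error of the limma fit over all 9 arrays unless called SD, with n = 3 arrays per organ.

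The MIR398 family was strong in leaf and root and at or near background in inflorescence. The MIR398a probe gave signals of 424, 397 and 544 in leaf replicates 1 to 3. In root it gave 1272, 1419 and 1443, and in inflorescence 1.37, 2.99 and 1.32. All 3 roots lay above all 3 leaves, and none of the inflorescence signals was well above background. On the log2 scale the root mean exceeded the leaf mean by 1.27 ± 0.38, which is 2.41-fold. Within slides 1 and 2 the difference was 1.35 and 1.09. As the inflorescence side was undetected, the remaining folds are bounds, set against each array's weakest detected signal or the probe's own signal if higher. MIR398a was at least 118-fold higher in leaf and at least 285-fold higher in root than in inflorescence. These bounds hold for the processed signal and carry no error. The weakest detected signal is no strict detection limit. On inflorescence replicate 1 it was 6.76, and a MIR827 probe read 7.75 there without being detected. Here and below, "at least" is thus meant against that signal alone. With another background correction (normexp on median signals), inflorescence differed from leaf and root by a log2 of -3.24 and -4.47, less than the bounds.

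MIR398b and MIR398c shared the low inflorescence signal but not the rise from leaf to root. MIR398b gave 155, 137 and 233 in leaf and 117, 147 and 156 in root. In inflorescence it gave 12.8, 2.47 and 1.02, with the first of these detected. The raw signals of leaf and root overlapped. The scaled root signals lay just below the scaled leaf signals without overlap, by a mean log2 difference of -0.64 ± 0.81, which became 0.09 when arrays were scaled to their median. Inflorescence differed from leaf by -6.13 ± 0.81 and from root by -5.50 ± 0.81, values that rest on 1 detected inflorescence array. Within slides 1 and 2, inflorescence minus leaf was -5.17 and -8.06, and root minus leaf -0.51 and -0.90. Without inflorescence replicate 1 the differences of inflorescence from leaf and root were -7.12 and -6.48, and without inflorescence replicate 3 they were -5.24 and -4.60.

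MIR398c gave 103, 78.6 and 140 in leaf, 98.5, 116 and 109 in root, and 6.56, 3.11 and 0.954 in inflorescence. Its scaled leaf and root signals overlapped (root minus leaf -0.30 ± 0.65, and 0.43 when arrays were scaled to their median). No inflorescence array detected it, although 6.56 on replicate 1 was close to that array's weakest detected signal, 6.76. Within slides 1 and 2, its fitted inflorescence minus leaf difference was -4.79 and -7.42. It was at least 27.3-fold higher in leaf and at least 22.3-fold higher in root than in inflorescence. With normexp on median signals the differences of inflorescence from leaf and root were -1.73 and -1.16 for MIR398c, neither of them called. They were -1.74 and -1.08 for MIR398b, the latter not called, and -3.24 and -4.47 for MIR398a, both called. Leaving out inflorescence replicate 1 or 3 moved the fitted difference of MIR398c from leaf, -5.67, to -6.29 or -4.84, and from root, -5.37, to -5.99 or -4.55.

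**Figure D1:**
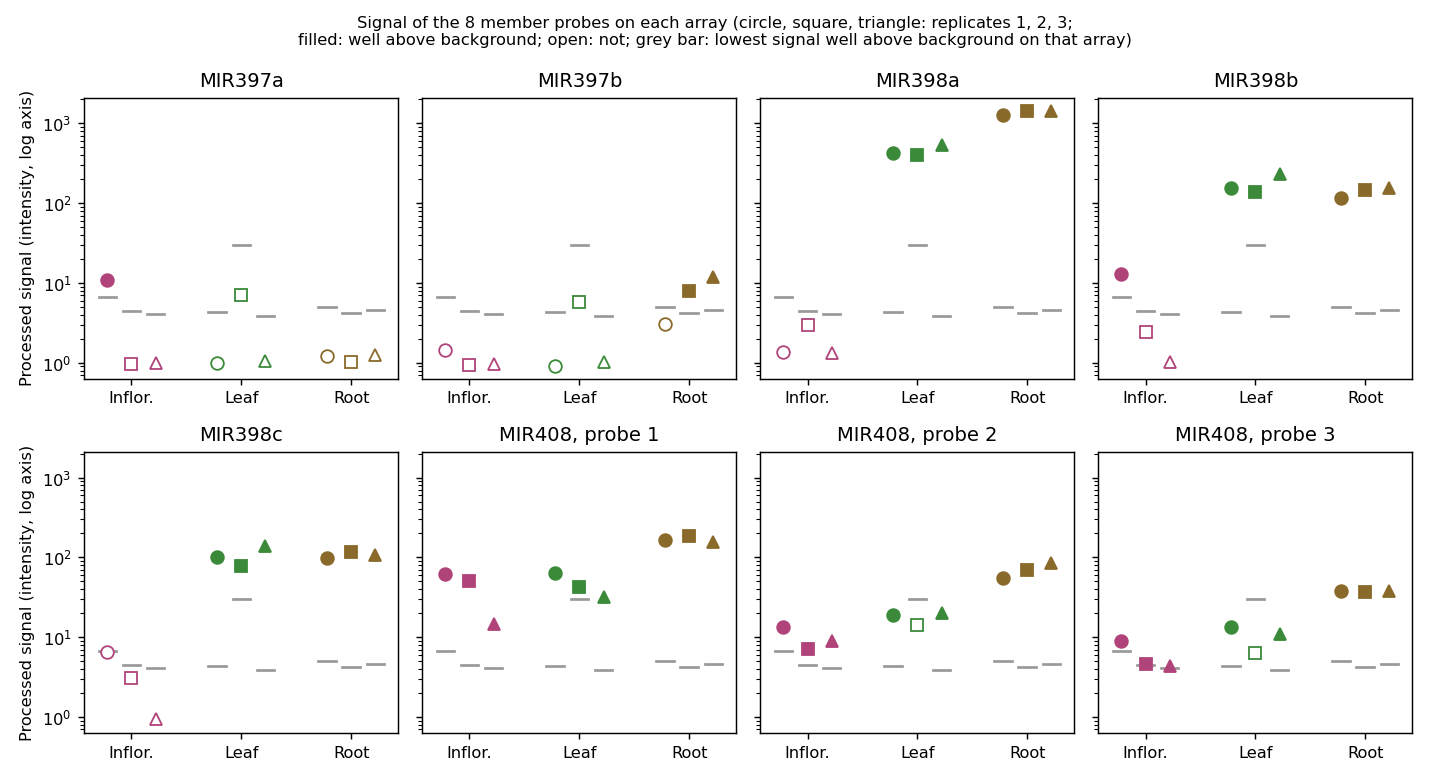
Processed signal (intensity, log axis) of each of the 8 probes on the 9 arrays, by organ, with detected signals filled, undetected ones open and the weakest detected signal of each array as a grey bar. MIR398a, MIR398b and MIR398c are detected on every leaf and root array and on 1 of 9 inflorescence spots, while MIR408 is detected in all 3 organs and highest in root.

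The 3 MIR398 probes thus differed in how they compared root with leaf. Ratios of probes on the same array do not depend on scaling between arrays. Their level also holds each probe's own brightness, so just their change between organs is read. The log2 ratio of MIR398a to MIR398b was 1.45, 1.54 and 1.22 on the leaf arrays and 3.44, 3.27 and 3.21 on the root arrays. The ratio was thus 3.74-fold higher in root (log2 change 1.90 ± 0.12, standard error from the SDs of 3 and 3 arrays). The ratio of MIR398a to MIR398c was 2.96-fold higher in root (1.56 ± 0.12). The ratio of MIR398b to MIR398c changed less, falling by 0.34 ± 0.10 on the log2 scale, again without overlap of the arrays. In each case, all 3 root arrays lay on one side of all 3 leaf arrays. Because MIR398b and MIR398c are related in sequence and probe sequences were not used here, cross-hybridisation between this pair was not tested.

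**Figure D2:**
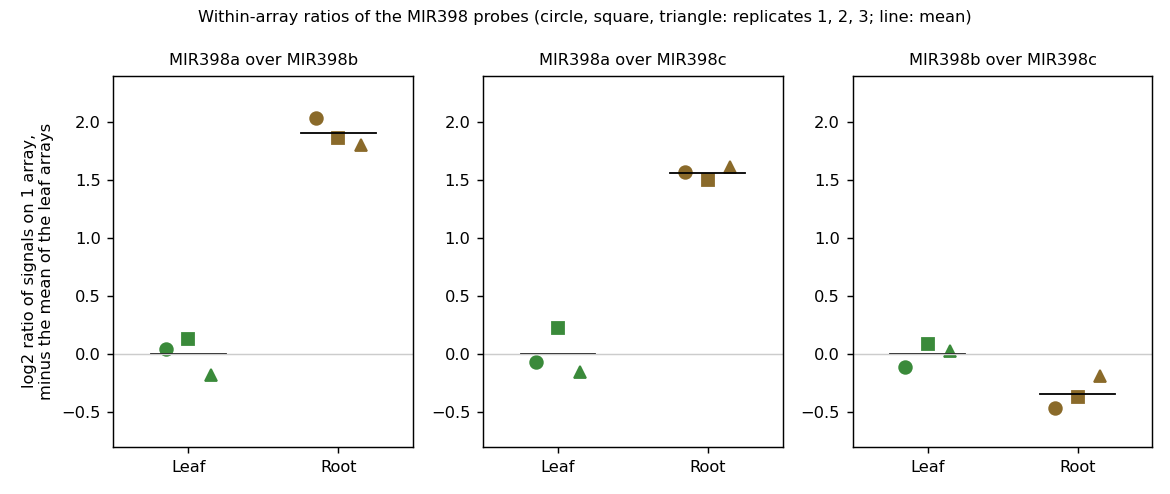
Log2 ratio of 2 MIR398 probes on the same array, shown relative to the mean of the leaf arrays, for 3 leaf and 3 root arrays, with a line at each mean. The ratios of MIR398a to MIR398b and to MIR398c rise by 1.90 and 1.56 from leaf to root, while that of MIR398b to MIR398c falls by 0.34.

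MIR408 had another pattern: it was detected in all 3 organs and was highest in root. Its brightest probe, probe 1, gave 62.6, 50.1 and 14.5 in inflorescence, 64.0, 42.1 and 32.2 in leaf, and 163, 185 and 158 in root. Inflorescence and leaf overlapped, and both lay below root. Probe 2 gave 13.6, 7.04 and 8.97 in inflorescence, 18.8, 14.3 and 20.1 in leaf, and 54.8, 70.5 and 85.9 in root. Probe 3 gave 8.98, 4.64 and 4.42 in inflorescence, 13.3, 6.38 and 10.9 in leaf, and 38.2, 36.9 and 38.2 in root. On leaf replicate 2, probes 2 and 3 were below detection.

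The 3 probes of MIR408 placed root above leaf by nearly the same amount, with log2 differences of 1.59 ± 0.64, 1.64 ± 0.22 and 1.61 ± 0.36, or about 3-fold. With normexp background correction of the median spot signals, the root minus leaf difference of probe 1 was 0.39 and its inflorescence minus root difference -0.88, and the latter was no longer called. Between inflorescence and root the 3 probes differed by -2.29 ± 0.64, -2.92 ± 0.22 and -2.78 ± 0.36. On inflorescence replicates 2 and 3, probe 3 (4.64 and 4.42) was close to those arrays' weakest detected signals, 4.46 and 4.14. For probes 2 and 3, scaled inflorescence signals were also below leaf without overlap (-1.28 ± 0.22 and -1.17 ± 0.36), whereas for the brightest probe the organs overlapped (-0.70 ± 0.64). The brightest probe had the widest spread of the 3, and its signals in inflorescence and leaf were lowest on slide 2. Within slides 1 and 2 its root minus leaf difference was 1.39 and 1.98, and its inflorescence minus root difference -1.76 and -3.36. Without inflorescence replicate 3, its inflorescence minus leaf difference was 0.02 and its inflorescence minus root difference -1.57. Over the 9 arrays, probes 2 and 3 correlated at r = 0.98, and with probe 1 at 0.84 and 0.90, as a description.

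The MIR397 precursors were mostly undetected. Of their 18 spots, 3 were well above background. MIR397a was detected on inflorescence replicate 1 alone (10.9), with 0.974 and 0.994 on the other inflorescence arrays. In leaf it read 0.995, 7.02 and 1.07, and in root 1.20, 1.01 and 1.26. The 7.02 is from leaf replicate 2, where undetected probes in general read near that value.

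MIR397b was detected on root replicates 2 and 3, at 7.95 and 11.9, with 3.09 on replicate 1. It read 0.914, 5.85 and 1.03 in leaf, again highest on leaf replicate 2, and 1.45, 0.947 and 0.972 in inflorescence. No fold is given for MIR397a or MIR397b, as neither was detected on all arrays of an organ. MIR857, the neighbour of MIR397b, also had its detected spots in root: the brightest of 3 probes gave 4.87 and 6.79 on root replicates 2 and 3 and was undetected on the other 7 arrays. These signals were near the weakest detected ones of those root arrays, 4.25 and 4.64. Undetected signals of this probe reached 6.38 on leaf replicate 2 and 4.51 on inflorescence replicate 1, so no organ difference is read. A second MIR857 probe was detected on root replicate 3 (6.35) and the last on no array.

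Set beside the whole array, the 4 members that could be tested (the MIR398 precursors and MIR408, each by its brightest probe) were counted as follows. A call needed a limma adjusted p under 0.05 over 2124 genes and at least 2-fold. Between inflorescence and leaf, 3 of the 4 members were called higher in leaf, where 9.37% of all tested genes were. Against root, 4 of 4 were called higher in root than in inflorescence, where 13.6% of all tested genes were. Between root and leaf, MIR398a alone was called, higher in root, where 13.7% of all genes were. The contrasts are those with which the members were chosen. The MIR398 precursors passed the detection filter through the organs where they were bright, and nothing is read from these shares. Both comparisons with inflorescence use the same inflorescence arrays.

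The root and leaf arrays did not overlap for 3 of 4 members: MIR398a and MIR408 were higher in root, as 24.3% of all tested genes were, and MIR398b, on the scale used here, was higher in leaf, as 17% were. Arrays did not overlap for 3 of 4 members between inflorescence and leaf and for 4 of 4 between inflorescence and root, all with inflorescence lower. Of all tested genes, 20.2% had leaf above inflorescence and 27% had root above inflorescence in this way. The median log2 difference of the 4 members was 0.48 for root minus leaf, -5.90 for inflorescence minus leaf and -5.43 for inflorescence minus root. Over all tested genes the medians were 0.05, -0.20 and -0.26.

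The root and leaf call of MIR398a sat at the threshold. The fit shares 1 estimate of spread over the organs, and for MIR398a the SD of the log2 signal was 0.84 in inflorescence, near background, but 0.045 in leaf and 0.19 in root. The call was lost when inflorescence replicate 1 or 3, or any leaf or root array, was left out, and without inflorescence replicate 3 MIR408 was called in its place. MIR408 in place of MIR398a was likewise called with the 75th percentile over all probes, with the mean of a gene's probes and with slide 1 arrays alone. With leaf and root arrays alone, a setting chosen after seeing the data, the error of MIR398a was 0.18 and both MIR398a and MIR408 were called, where 12.9% of all tested genes were called higher in root. With replicate number as a block, MIR398a and MIR408 were called as well, where 17.1% of all tested genes were called higher in root. Without leaf replicate 2, root minus leaf was 1.27 for MIR398a, -0.70 for MIR398b, -0.41 for MIR398c and 1.64 for MIR408. The inflorescence and root call of MIR408 was lost without inflorescence replicate 3, leaf replicate 2, or any 1 root array.

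Among precursors detected on all arrays of both organs, MIR408 and MIR398a ranked 5 and 7 of 36 from the highest root minus leaf difference, and MIR398c and MIR398b 17 and 18. The median of those 36 was -0.70. For inflorescence minus root, MIR408 ranked 62 of 64, near the lowest. MIR398 bounds were not ranked. The pattern of detection on all leaf and all root arrays and on at most 1 inflorescence array was found for 5 of the 36 precursors, the 3 of MIR398 together with ath-MIR169a and ath-MIR841, which were named after their values were seen. Of the other genes detected on all leaf and root arrays, 2 of 407 lincRNAs, 2 of 187 non-coding loci and 0 of 69 protein-coding genes had this pattern. The pattern was taken from MIR398 itself, so nothing is read from these counts. It needs detection on leaf replicate 2, which detected 46 precursors, against 95 to 119 on the other arrays. Dim precursors can miss it there: MIR395b and MIR395c were detected on 0 inflorescence, 2 leaf and 3 root arrays.

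**Figure D3:**
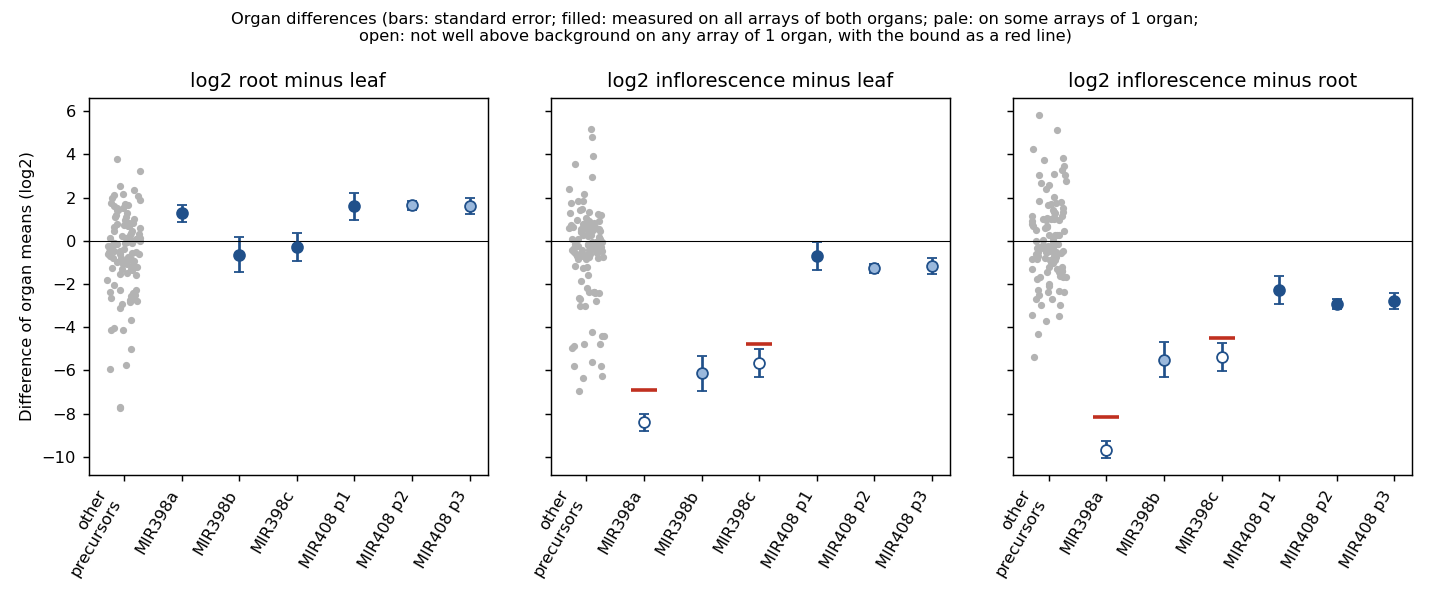
Log2 differences between organ means for the 6 probes of the 4 tested members (blue, with standard errors; filled where all arrays of both organs detected the probe, pale where some arrays of 1 organ did, open where none of 1 organ did) beside the 110 other tested precursors (grey), with bounds as red lines. The fitted inflorescence differences of MIR398a, MIR398b and MIR398c lie between -5.37 and -9.66, and MIR408 lies above 0 in root minus leaf for all 3 probes.

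Of 33 genes known as targets of these microRNAs or for copper homeostasis, 1 was on the array: HY5 (AT5G11260), a bZIP factor of light signalling that is known to act with SPL7 on MIR408. Superoxide dismutases, laccases, plantacyanin and SPL7 itself were not analysed here. The brightest HY5 probe gave 4741, 4221 and 4613 in inflorescence, 1807, 1633 and 3871 in leaf, and 3762, 4271 and 4955 in root. It did not pass the test in root against leaf (0.59 ± 0.22, limma adjusted p = 0.0909), inflorescence against leaf (0.61 ± 0.22, adjusted p = 0.0949) or inflorescence against root (0.02 ± 0.22, adjusted p = 0.98). Its other probes disagreed in size: root exceeded leaf by 1.92 ± 0.11 and 1.85 ± 0.19, and inflorescence exceeded leaf by 2.02 ± 0.11 and 1.94 ± 0.19. On those probes leaf was the lowest organ on every array, and the means of inflorescence and root lay within 0.10 of each other.

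Precursors of 2 other nutrients gave a comparison, the sulfate-responsive MIR395 family and the phosphate-responsive MIR399, MIR827, MIR778 and MIR2111. All 16 looked for were on the array, and 3 passed the detection filter: MIR395b, MIR395c and MIR395e. Each passed through the organ in which it was bright, so its difference from an organ at background is given as values, with no test. MIR395b gave 7.25, 12.9 and 11.9 in root and MIR395c 11.7, 12.1 and 11.9, where both were detected on all 3 arrays. In inflorescence both stayed between 0.830 and 1.75 and undetected, which puts root at least 2.15-fold higher for MIR395b and 2.47-fold higher for MIR395c. In leaf they were detected on 2 of 3 arrays, at 5.88 and 5.79 for MIR395b and 6.36 and 8.55 for MIR395c. MIR395e went the other way, detected in inflorescence alone, at 12.9, 7.67 and 9.04, and at least 2.01-fold higher there than in root. Against leaf its bound was 0.919-fold, which sets no rise over leaf, and it read 7.28, undetected, on leaf replicate 2.

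The genes whose log2 signals ran most like each member over the 9 arrays were found by Pearson's r among 2123 other tested genes, as a description of 9 arrays that share organs and slides. For MIR398b the first was MIR398c (r = 0.99) and for MIR398c it was MIR398b. After it, MIR398b was followed by the lincRNAs AT3TU040390 and AT1TU022930 and the non-coding loci AT1G19968 and AT3G41761 (r = 0.97 to 0.98). MIR398c was followed by AT1G19968, AT3G41761, ath-MIR159b and ath-MIR395c (0.98 to 0.99). AT1G19968, like MIR398c, was undetected on the inflorescence arrays and detected on every leaf and root array, with a log2 inflorescence minus leaf difference of -5.05. AT3TU040390 was detected likewise, with -6.50. AT1TU022930, AT3G41761 and ath-MIR159b were detected on every inflorescence array, and their differences were just -0.62, -1.615 and -0.55. For ath-MIR395c it was -3.03. Most inflorescence signals of the MIR398 probes behind these r values were undetected.

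MIR398a had as its nearest genes the lincRNA AT5TU071970, the non-coding locus AT2G35945, the protein-coding genes PAD3, which makes camalexin, and TSB1, which makes tryptophan, and ath-MIR395c (each r = 0.99). MIR398c and MIR398b came at ranks 23 and 34 (r = 0.96 and 0.93). Their inflorescence minus leaf differences were smaller than the fitted -8.40 of MIR398a, with -3.08 for AT5TU071970 and -1.29 for TSB1. MIR408 was most like 5 lincRNAs: AT4TU024020, AT5TU061100, AT5TU064730, AT1TU070780 and AT1TU083430 (r = 0.98 to 0.99), each with its highest mean in root. The MIR398 precursors came at ranks 507 to 628 for MIR408 (r = 0.64 to 0.68).

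**Figure D4:**
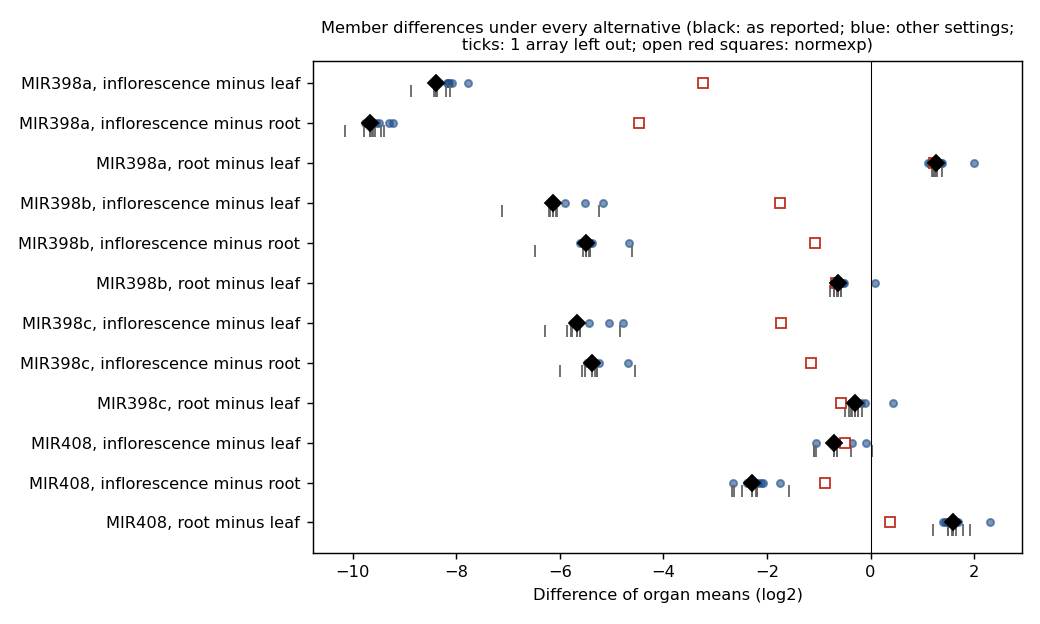
Each of the 12 organ differences of the 4 tested members (log2) as reported (black) and under every alternative, with 1 array left out (ticks), with normexp (open red squares) and with other settings (blue). The inflorescence differences of MIR398 stay below -1 throughout, and the root minus leaf differences of MIR398b and MIR398c cross 0 when arrays are scaled to their median.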

How the data were processed

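Signals were read from the 9 deposited scanner files. The headers name Feature Extraction version 10.5.1.1 by Agilent, and GE1_105_Dec08 as its protocol. Per the file headers, it removed background and spatial trends from each spot's intensity, and the resulting processed signal was not normalised between arrays. Per the labels' protocols, 0.5 µg of RNA was amplified and labelled with Cy3. A deposited table of log2 signals, with column medians of 1.414 to 1.416 and r = 0.966 to 0.998 with the scanner values, served as an alternative; how its scale was made stays unknown, and it holds signals, not centred values or ratios.

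The 545 control and construct spots and 71 outlier spots did not enter the fits. Saturation was recorded for 0 gene spots. None of the members' spots was an outlier. Log2 signals were scaled by each array's 75th percentile over 1345 probes. The probe with the highest mean stood for its gene, and a gene was tested where that probe was detected on all 3 arrays of an organ (2124 genes, of which 114 precursors). Tests used limma 3.58.1 in R 4.3.3 on 3 organ means with Benjamini-Hochberg adjustment, and were checked on simulated data. Members' errors, and those of the dimmer HY5 probes, come from a separate fit of the same model over 4015 probes. The error of the brightest HY5 probe comes from the fit over genes. The number of arrays limits the precision. Members, lists and alternatives were chosen with earlier results of these data known. Genes named were the members, the listed genes on the array and the 5 most correlated genes of each tested member. Same-numbered arrays of different organs deviated together in every pair (r = 0.141 to 0.631), so replicate number served as a block in an alternative fit. The main fit, its calls and its errors use no block. Arrays of different numbers on slide 1 correlated alike (r = 0.19 to 0.537), so the pairing cannot be told apart from the slide. Arrays on different slides correlated negatively, which follows at least in part from taking deviations from organ means of 3 arrays. The scanner files hold median and not mean signals, which the normexp alternative used with an offset of 50.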

Additional observations from a re-analysis of the deposited data

How the results depend on the processing

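The counts of members called were 1 between root and leaf, 3 between inflorescence and leaf, and 4 between inflorescence and root. For root against leaf the count was 2 with arrays scaled to their median, with quantile normalization, with the deposited table, with the replicate block, with slide as a block and with leaf and root arrays only. The share of all tested genes called higher in root, 13.7%, was then 16.9%, 16.3%, 16.6%, 17.1%, 17.9% and 12.9%. The members' count was 0 with normexp, with no filter on dim genes, with detection on all 9 arrays required, and without leaf replicate 2 when scaling probes were chosen again (the last and the fit of leaf and root were chosen after seeing the data). In these settings, in the same order, the share of all tested genes called higher in root was 2.78%, 4.47%, 11.5% and 13%. Leaving out 1 array gave 0 to 1, where 7.72% to 13.5% of all tested genes were called higher in root. With normexp, which took median signals, another background correction and an offset together, the counts for inflorescence were 1 against root and 2 against leaf. Of 2124 tested genes, 61 were then called lower in inflorescence than in root and 56 lower than in leaf. With no filter on dim genes the count for inflorescence against root was 3, without MIR408. There, 202 of 5076 genes were called lower in inflorescence. Requiring detection on all 9 arrays leaves just MIR408, with inflorescence counts of 0 against leaf and 1 against root. Of 12 member differences, 9 reached 2-fold, and 2 of 3 with that filter. These differences share arrays and all genes were not so counted, so nothing is read.

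Over all genes, calls numbered 506 between root and leaf, 378 between inflorescence and leaf, and 514 between inflorescence and root. With normexp they were 173, 95 and 127, and with detection on all 9 arrays, where 676 genes were tested, 205, 172 and 173. Inflorescence against leaf gave 212 with the 75th percentile over all probes and 231 with the median. The share of calls higher in root than leaf, 57.3%, was 77.8% with the median, 34.1% with normexp and 38% with detection on all 9 arrays. For inflorescence against leaf it was 47.4%, and 61.3%, 74.9% and 30.2% with the 75th percentile over all probes, the median and detection on all 9 arrays. The median shifted all tested genes to 0.77 for root minus leaf and to 0.42 for inflorescence minus leaf. In that setting MIR398b and MIR398c were at 0.09 and 0.43 for root minus leaf, thus below the median gene as before, and MIR398a and MIR408 at 1.99 and 2.31. Of 247 member values under alternatives, 88 equalled the reported one, since the setting cannot change that difference (a block, a filter, the mean of a single probe, an array of an organ not compared). Of the 247, 13 moved by more than the SD between replicates, and 0 called differences changed sign. The replicate block changed no other count of members. Dim signals limit MIR397 and the inflorescence side of MIR398.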
